A study of Mus musculus with 16 samples.

Results

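Hepatocyte identity rests on a small set of liver-enriched transcription factors, and 9 of them were followed here by RNA-seq in mouse liver tumors and in the nontumor liver beside them. They are Hnf4a, Nr5a2, Foxa1, Foxa2, Foxa3, Cebpa, Cebpb, Onecut1 and Prox1, taken by gene symbol, and they make up 9 of the 20601 genes of the deposited table. All 9 are listed there and all 9 passed the filter on low values, which kept 13432 genes for testing. The 16 libraries form 4 groups of 4, namely KD tumor, KD nontumor, ND tumor and ND nontumor, where KD is a ketogenic diet and ND the normal diet. Every one of the 8 mice received, by hydrodynamic delivery, 19 µg of a plasmid encoding human N-Ras, 1 µg of another encoding human c-Myc and 2 µg of one for the Sleeping Beauty transposase, so the nontumor liver is also liver exposed to these plasmids. At week 4 after delivery the mice went on KD, with 0.1% carbohydrate, 89.5% fat and 10.4% protein, or stayed on ND, and both tissues were resected at week 8. Strain, age and the promoters that drive the transgenes are not given in the sources used here. The labels tie no sample to a named mouse, so a p-value here reflects only how these samples spread.

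These factors work as a network. HNF4A, a nuclear receptor, holds many metabolic and secretory genes of the adult hepatocyte active, and NR5A2 (LRH-1), another nuclear receptor, controls bile acid and cholesterol genes. FOXA1, FOXA2 and FOXA3 are forkhead pioneer factors that open liver enhancers. C/EBPα drives gluconeogenic and differentiation genes of quiescent hepatocytes, while C/EBPβ serves the acute phase response and regeneration. ONECUT1 (HNF-6) and PROX1 act early in hepatoblasts and stay on in the adult liver, where PROX1 is a corepressor of HNF4A and NR5A2. The comparisons ask how these transcripts differ between tumor and nontumor liver on each diet, between the diets within each tissue, and whether the diet difference depends on the tissue. In bulk tissue, fewer hepatocytes and less of a transcript in each hepatocyte cannot be told apart.

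Expression was deposited as TPM, a level per transcript length scaled to the total of each library. Whole reads that match the TPM values could be recovered, and their sum over the listed genes ran from 3518966 to 14074042 reads per library. One library stands apart: the listed genes of ND nontumor 4 hold 7.38% of its TPM total, against 49.96% to 88.45% in the other 15 libraries. Levels are therefore given as rescaled TPM, divided by a median-of-ratios factor for each library (0.126 for ND nontumor 4, and 0.922 to 1.498 in the others). The tumor over nontumor calls of members that passed on ND are given with and without that library. So is Foxa2 between the diets in nontumor liver. Most other results that use the ND nontumor group, list counts among them, are given only with it. Albumin, which defines hepatocytes, was at 65048 to 83087 rescaled TPM in KD tumor, 12004 to 37845 in KD nontumor, 24473 to 50497 in ND tumor and, in ND nontumor, 16071 to 34624. Albumin was thus abundant in all 16 libraries, while a list of hepatocyte markers, counted below, moved in both directions. Afp, the fetal and tumor marker, was at 5.45 to 416 in KD tumor, 2.46 to 3.41 in KD nontumor, 11.5 to 45.2 in ND tumor and, in ND nontumor, 0.5003 to 1.84.

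The promoters of Foxa2, Foxa3 and Onecut1 are shown because these genes had the largest changes between tumor and nontumor liver, Foxa3 upward and the other two downward. Each is the 250 bases before the transcript start in RefSeq on build GRCm38.p6, written 5′ to 3′ on the strand of the gene, with any motif searched for in capitals.
Foxa2, chr2:148046970-148047219, minus strand: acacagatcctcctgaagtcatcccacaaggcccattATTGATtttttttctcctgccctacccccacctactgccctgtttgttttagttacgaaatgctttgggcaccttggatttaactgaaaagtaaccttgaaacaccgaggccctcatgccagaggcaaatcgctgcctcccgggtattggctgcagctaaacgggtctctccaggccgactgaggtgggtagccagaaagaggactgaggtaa
Foxa3, chr7:19023540-19023789, minus strand: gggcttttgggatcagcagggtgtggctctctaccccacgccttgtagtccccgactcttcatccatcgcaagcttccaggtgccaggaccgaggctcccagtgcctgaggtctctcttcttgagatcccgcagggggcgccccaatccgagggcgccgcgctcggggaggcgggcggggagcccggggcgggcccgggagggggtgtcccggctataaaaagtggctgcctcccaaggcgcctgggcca
Onecut1, chr9:74861671-74861920, plus strand: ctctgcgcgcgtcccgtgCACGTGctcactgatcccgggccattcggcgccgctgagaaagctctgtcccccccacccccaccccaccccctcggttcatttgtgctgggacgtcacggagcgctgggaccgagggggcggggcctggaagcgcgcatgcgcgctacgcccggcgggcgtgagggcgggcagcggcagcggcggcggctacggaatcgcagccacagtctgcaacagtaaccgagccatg
Both strands of all 9 promoters were searched for 6 short motifs, and the share of 32851 promoters of this length that hold each motif gives the background. The FOXA core TGTTTAC (3.17% of promoters) was found in the Foxa1 promoter, 141 to 135 bases before the start. The ONECUT core ATTGAT (6.72%) was found in those of Foxa2, 213 to 208 bases before the start, and Hnf4a, 59 to 54 bases before it. The E-box CACGTG (6.02%), which MYC and USF proteins bind, was found in that of Onecut1, 232 to 227 bases before the start. The HNF4A site CAAAGTCCA (0.384%), the C/EBP site TTGCNNAA (9.56%) and the NR5A2 site CAAGGTCA (1.33%) were found in 0 of the 9. A match describes the letters and does not show that a factor binds there, and the Foxa3 promoter holds none of the 6 motifs in this window.

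The 9 transcripts spanned a wide range of levels. Over the 16 libraries the median was 565 rescaled TPM for Cebpb, 373 for Cebpa and 279.6 for Hnf4a. The mean of each lay above the mean of at least 97.8% of the tested genes. Medians of 52.5 for Foxa3, 25.7 for Foxa2, 20.4 for Prox1, 14.2 for Foxa1 and 12.5 for Nr5a2 form a middle range. Onecut1 was lowest with a median of 2.77 and a mean above that of 24.1% of the tested genes, and it rested on 10 to 94 reads per library. By contrast Hnf4a had 2903 to 9673 reads and Foxa2 had 138 to 969.

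**Figure D1:**
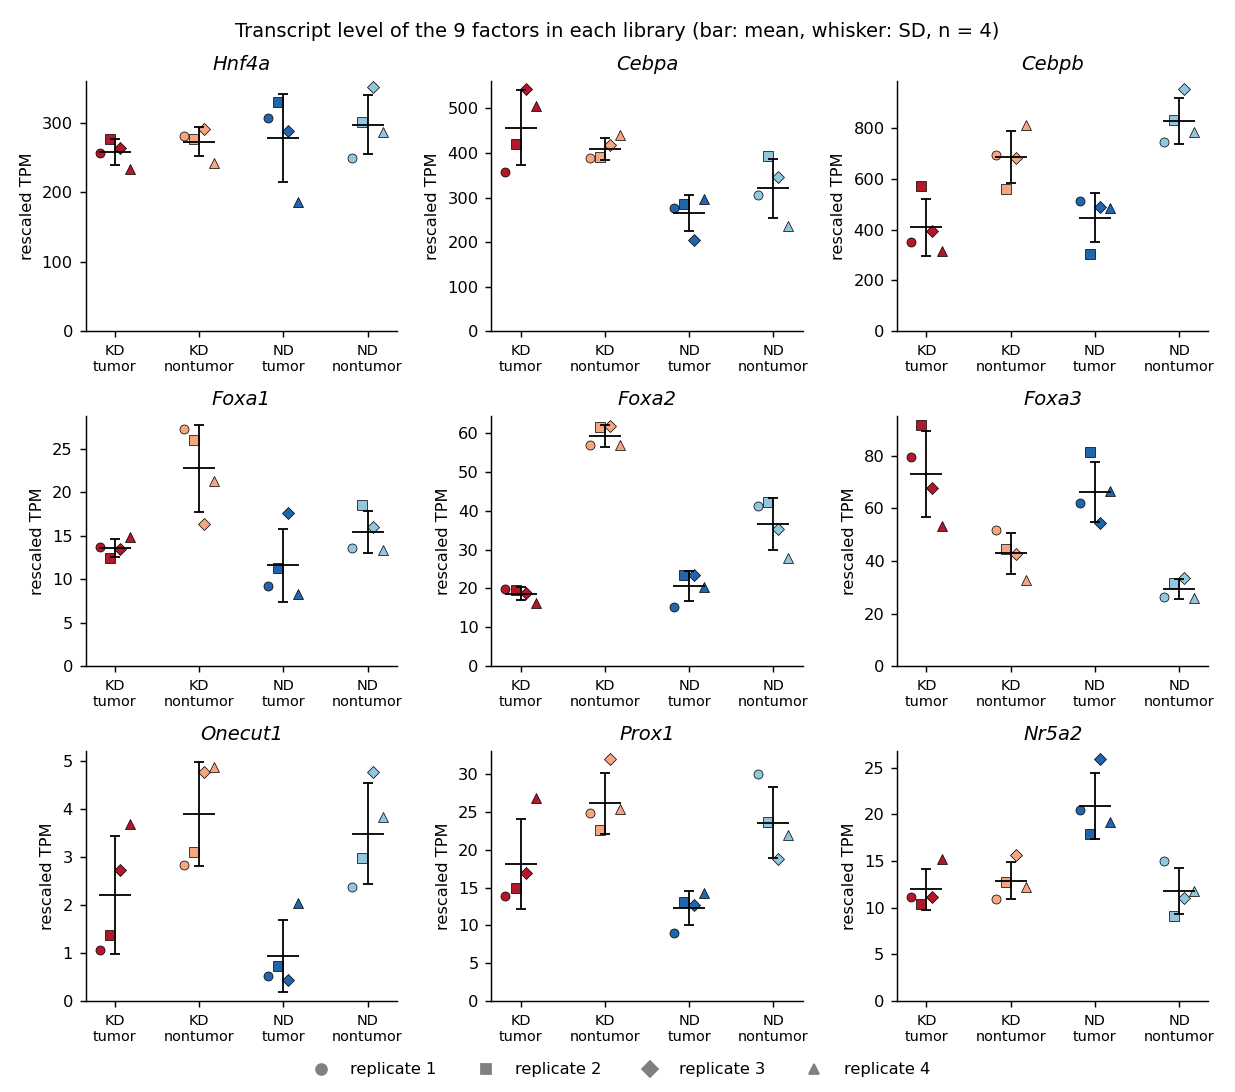
Rescaled TPM (y axis, linear, from 0) of each of the 9 factors in the 4 groups; points are libraries, with the shape giving the replicate number, the bar the mean and the whisker the SD (n = 4). Foxa2 lies at 16.3 to 19.96 in KD tumor and 56.9 to 61.97 in KD nontumor, while the 4 groups of Hnf4a overlap one another.

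Tumor and nontumor liver differed in some of these factors and not detectably in others, and the direction was mixed. A gene passed where its Benjamini-Hochberg adjusted p, taken over all 13432 tested genes in a limma fit of the 16 libraries, was under 0.05. On KD, 4 of the 9 passed, against a background of 32.5% of all tested genes: Foxa1, Foxa2 and Cebpb were lower in tumor (16.2% of all genes fell) and Foxa3 was higher (16.3%). On ND, 6 of the 9 passed, against 28.7% of all tested genes: Foxa2, Cebpb, Onecut1 and Prox1 fell (14.2% of all genes) and Foxa3 and Nr5a2 rose (14.5%). The tumor and nontumor libraries did not overlap for 3 members on KD (background 33.1%) and for 6 on ND (27.5%). Foxa2, Foxa3 and Cebpb passed on both diets in the same direction, and Hnf4a and Cebpa passed on neither. The median log2 fold change of the 9 was -0.54 on KD and -0.43 on ND, beside 0.01 and 0.00 over all tested genes.

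**Figure D2:**
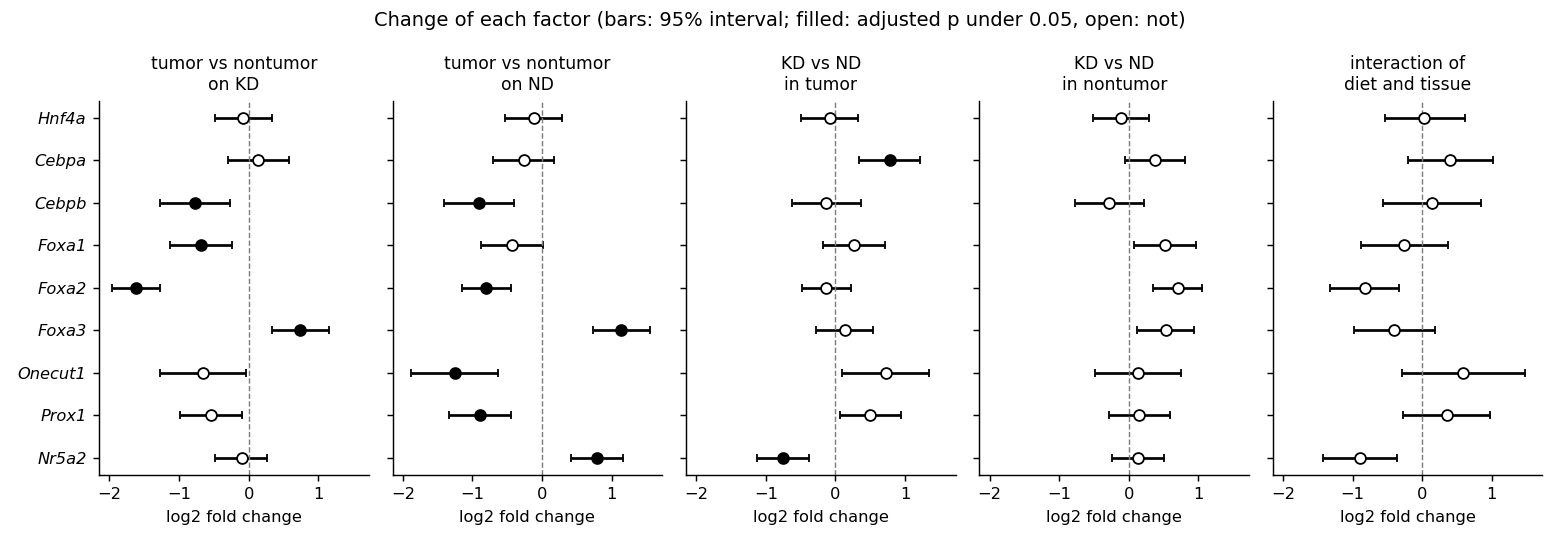
Log2 fold change (x axis) of each factor (y axis) in the 5 comparisons, with 95% intervals; filled points passed at an adjusted p under 0.05 and open points did not. The filled points number 4, 6, 2, 0 and 0 from left to right.

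These calls depend on the scale of the libraries and, on deposited TPM, on ND nontumor 4. On the deposited TPM, without rescaling, the median of all tested genes moved to -0.26 on KD and 0.42 on ND, the calls over all genes went to 1111 with 34.8% higher on KD and to 1418 with 77.2% higher on ND, against 4361 with 50.1% and 3855 with 50.5% after rescaling, and Foxa2 on KD was the single member that passed. With the listed genes of each library brought to 1 common sum, members called on KD were 0 higher and 4 lower (rescaled 1 and 3), and on ND 2 higher and 1 lower (rescaled 2 and 4), where Foxa2, Cebpb and Prox1 did not pass on ND and Foxa3 did not on KD, while Prox1 passed on KD. Directions below are relative to the median gene. On deposited TPM the ND values of Hnf4a, Cebpa and Foxa1, none of which passed, turned positive (0.55, 0.40 and 0.11). On that scale without ND nontumor 4 they were -0.26, -0.53 and -0.61. Calls over all genes were then 4451 on KD with 26.8% higher, where the median stayed at -0.26. On ND they were 3067 with 40.0% higher, at a median of -0.11. The fit takes its spread from all 16 libraries, so ND nontumor 4 also enters the KD comparison.

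Hnf4a (chr2:163506808-163572910, plus strand, build GRCm38 as for all positions), the central nuclear receptor of the network, was at 257, 278, 264 and 233 rescaled TPM in KD tumor, against 282, 277, 291 and 243 in KD nontumor. In the ND mice it was at 308, 331, 289 and 187 in tumor, against 249.5, 301, 352 and 287 in nontumor liver. All 4 groups overlap, and ND tumor 4 is the lowest of the 16 libraries. Tumor against nontumor gave a log2 fold change of -0.08 ± 0.19 (SE) on KD, with a 95% interval of -0.49 to 0.33 and an adjusted p of 0.77. On ND it gave -0.12 ± 0.19, with an interval of -0.53 to 0.29 and an adjusted p of 0.691. A log2 fold change of Hnf4a below -0.53 lies outside both intervals, and a smaller fall was not detectable with these libraries.

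The antisense transcript Hnf4aos, which overlaps Hnf4a on the opposite strand, did fall. It averaged 1.46 ± 1.03 rescaled TPM in KD tumor and 10.9 ± 3.13 in KD nontumor (SD, n = 4 each), with an adjusted p of 0.000423. In the ND mice the averages were 0.599 ± 1.104 in tumor and 5.06 ± 1.95 in nontumor liver, with an adjusted p of 0.00115. Whether the counting used strand is not given in the sources used here, so reads from Hnf4a and Hnf4aos cannot be told apart with certainty. Hnf4aos was 10.9 TPM at its highest group mean, small beside Hnf4a. Its values rest on few reads, 1 to 13 per library in KD tumor and 28 to 90 in KD nontumor. The ND libraries held 0 to 10 in tumor and 11 to 32 in nontumor liver.

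Nr5a2 (chr1:136842571-136960448, minus strand), the nuclear receptor of bile acid and cholesterol genes, was higher in ND tumor than in any other group. Its levels were 11.1, 10.4, 11.1 and 15.2 rescaled TPM in KD tumor, against 10.9, 12.7, 15.6 and 12.3 in KD nontumor. On ND they were 20.5, 17.9, 25.99 and 19.2 in tumor, against 15.04, 9.11, 11.1 and 11.7 in nontumor liver. The lowest ND tumor library thus lies above the highest library of each other group. On ND the log2 fold change of tumor over nontumor was 0.79 ± 0.18 (adjusted p 0.00328), a 1.73-fold rise, and without ND nontumor 4 it was 0.79, with an adjusted p of 0.00734. The ND call was lost on deposited TPM (adjusted p 0.12) and on deposited TPM without ND nontumor 4 (0.098). The next value is on the rescaled TPM. On KD it was -0.10 ± 0.18, with an interval of -0.48 to 0.27 and an adjusted p of 0.686.

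The forkhead family moved in opposite directions: Foxa2 fell in tumor on both diets and Foxa3 rose on both. Foxa2 (chr2:148042877-148046969, minus strand) was at 19.96, 19.6, 18.7 and 16.3 rescaled TPM in KD tumor, against 56.9, 61.5, 61.97 and 56.9 in KD nontumor. With ND it stood at 15.2, 23.5, 23.6 and 20.5 in tumor, against 41.2, 42.2, 35.3 and 27.8 in nontumor liver. Every tumor library lies below every nontumor library on either diet. The log2 fold change was -1.62 ± 0.17 on KD, with an adjusted p of 5.01e-06, so tumors held 0.325 of the nontumor level. On ND it was -0.80 ± 0.17, with an adjusted p of 0.00187, and without ND nontumor 4 it was -0.92, with an adjusted p of 0.000759. The fall on KD passed under all 27 alternative settings, deposited TPM included.

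Foxa3 (chr7:19013284-19023538, minus strand), the family member known for its part in metabolic genes of the adult liver, went the other way. Its levels were 79.5, 91.8, 67.6 and 53.2 rescaled TPM in KD tumor, against 51.8, 44.4, 42.7 and 32.8 in KD nontumor. On ND they were 62.1, 81.6, 54.4 and 66.4 in tumor, against 26.2, 31.6, 33.3 and 25.8 in nontumor liver. Neither pair of groups overlaps. The log2 fold change was 0.74 ± 0.19 on KD (adjusted p 0.00773) and 1.14 ± 0.19 on ND (adjusted p 0.000369), and on ND without ND nontumor 4 it was 1.09, with an adjusted p of 0.00147. On KD the call was lost on the common sum (0.42, adjusted p 0.114), on deposited TPM (0.761) and on deposited TPM without ND nontumor 4 (0.145).

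Foxa1 (chr12:57540628-57546916, minus strand), a pioneer factor whose work in liver development overlaps that of FOXA2, was at 13.7, 12.4, 13.4 and 14.8 rescaled TPM in KD tumor, against 27.3, 26.04, 16.3 and 21.3 in KD nontumor. ND mice had it at 9.17, 11.2, 17.6 and 8.27 in tumor, against 13.6, 18.6, 16.02 and 13.4 in nontumor liver. On KD the groups do not overlap, while on ND tumor replicate 3 lies among the nontumor libraries and the other 3 tumor libraries lie below them all. The log2 fold change was -0.68 ± 0.21 on KD with an adjusted p of 0.0206. That call was lost without KD tumor 2 (adjusted p 0.0545), without KD nontumor 1 (0.0568) and without KD nontumor 2 (0.0518). On ND the value was -0.43 ± 0.21, with an interval of -0.87 to 0.02 and an adjusted p of 0.142, and without ND tumor 3 it passed (-0.63, adjusted p 0.0209).

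The makeup of the Foxa pool followed from these shifts. Foxa3 made up 68.8% ± 4.63 (SD, n = 4) of the summed Foxa TPM in KD tumor and 34.1% ± 3.58 in KD nontumor. In the ND mice it made up 67.2% ± 6.88 in tumor and 36.1% ± 3.38 in nontumor liver. Foxa2 was the largest part in nontumor liver of both diets, with 47.7% ± 4.49 on KD and 44.9% ± 4.38 on ND, and held 17.9% ± 1.55 in KD tumor and 20.998% ± 2.94 in ND tumor. The summed level itself was 105 ± 17.1 rescaled TPM in KD tumor, 125 ± 11.3 in KD nontumor, 98.4 ± 12.7 in ND tumor and 81.3 ± 10.7 in ND nontumor. A ratio within a library does not depend on the scaling, and the Foxa3/Foxa2 ratio was 3.98, 4.68, 3.61 and 3.26 in KD tumor, against 0.909, 0.722, 0.689 and 0.576 in KD nontumor. On ND it was 4.08, 3.47, 2.31 and 3.24 in tumor, against 0.636, 0.749, 0.945 and 0.927 in nontumor liver. All 8 tumor libraries held more Foxa3 than Foxa2 and all 8 nontumor libraries held less.

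Tests of such ratios used log2 of TPM plus 1 and an exact two-sided permutation test of 4 against 4 libraries, in which 70 assignments allow no p below 0.0286. Over the 12 tests of 3 ratios the smallest adjusted p was 0.0686, so no ratio passed. Whatever its size, a difference can pass only where enough of the other tests also reach the smallest exact p. For Foxa3/Foxa2 the difference of the mean log2 ratio was 2.36 on KD and 1.94 on ND, both at that smallest exact p of 0.0286, with no overlap on either diet.

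**Figure D3:**
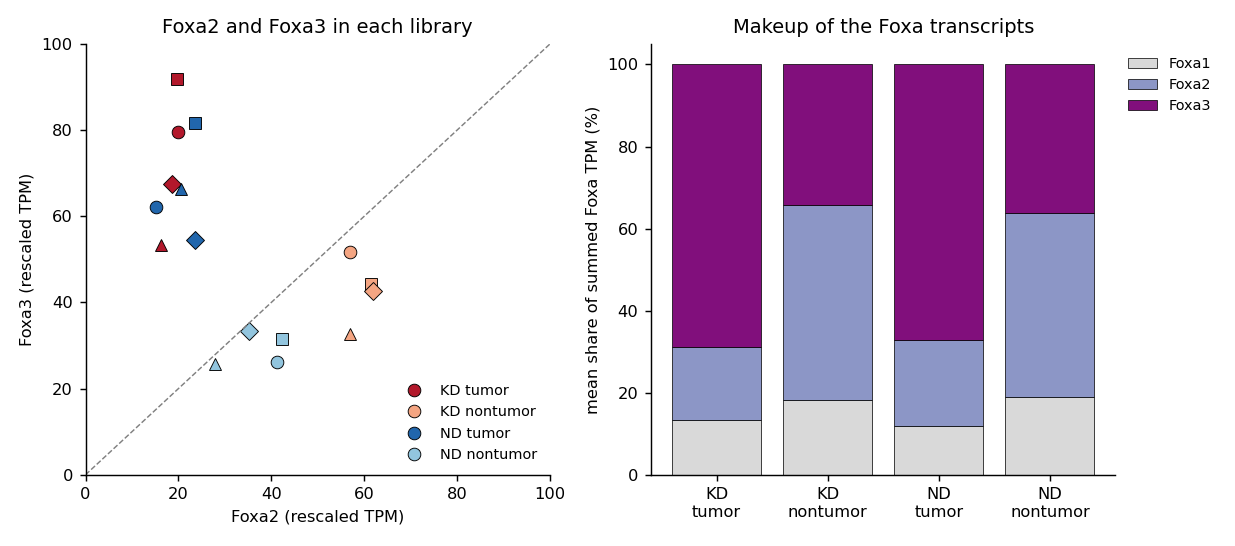
Left, Foxa3 against Foxa2 in rescaled TPM for each library (shape gives the replicate number, the dashed line equal levels); right, the mean share of Foxa1, Foxa2 and Foxa3 in the summed Foxa TPM of each group (%). Tumor libraries lie above the line and nontumor libraries below it, and Foxa3 takes 68.8% of the pool in KD tumor against 34.1% in KD nontumor.

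Of the C/EBP pair, Cebpb fell in tumor on both diets and Cebpa did not pass on either. Cebpb (chr2:167688915-167690418, plus strand), the factor of the acute phase response, was at 353, 570.4, 396 and 318 rescaled TPM in KD tumor, against 692, 560.0, 683 and 812 in KD nontumor. The ND libraries held it at 514, 303, 490.0 and 485 in tumor, against 747, 834, 953 and 783 in nontumor liver. The ND groups do not overlap, while on KD tumor replicate 2 reaches above the lowest nontumor library. The log2 fold change was -0.77 ± 0.23 on KD with an adjusted p of 0.0194. That call was lost without KD tumor 1 (adjusted p 0.0548), KD tumor 4 (0.0586) or KD nontumor 4 (0.0639). It was also lost in a fit of the KD libraries alone (0.0526), with the replicate number as a block (0.0638) and on deposited TPM (0.389). It held on deposited TPM without ND nontumor 4 (0.00584). On ND the log2 fold change was -0.91 ± 0.23 (adjusted p 0.00805), so that tumors held 0.532 of the nontumor level. Without ND nontumor 4 it was -0.94, with an adjusted p of 0.0149.

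Cebpa (chr7:35119293-35121928, plus strand), the factor of the differentiated, quiescent hepatocyte, was at 358, 419, 545 and 504 rescaled TPM in KD tumor, against 388, 390.5, 417 and 440.0 in KD nontumor. In the ND mice it was at 276, 285, 205 and 296 in tumor, against 306, 393, 346 and 237 in nontumor liver. Both pairs of groups overlap. The log2 fold change was 0.14 ± 0.21 on KD, with an interval of -0.29 to 0.58 and an adjusted p of 0.624. On ND it was -0.26 ± 0.21, with an interval of -0.70 to 0.17 and an adjusted p of 0.366. Both C/EBP transcripts are rich in GC, with 62.6% in Cebpa and 67.2% in Cebpb against a median of 50.3% over the tested genes. With the GC and length trends of each library removed, Cebpb tumor over nontumor was -0.78 on KD (adjusted p 0.0164) and -0.89 on ND (adjusted p 0.00813). The protein-coding gene Tmem189 overlaps Cebpb on the opposite strand and was not analysed here.

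The balance of the C/EBP pair was also taken within each library. The Cebpb/Cebpa ratio was 0.987, 1.36, 0.727 and 0.6297 in KD tumor, against 1.78, 1.43, 1.64 and 1.85 in KD nontumor. On ND it was 1.86, 1.06, 2.39 and 1.64 in tumor, against 2.44, 2.12, 2.75 and 3.31 in nontumor liver. Of the 16 libraries, only KD tumor 1, 3 and 4 held less Cebpb than Cebpa. The mean log2 ratio differed by -0.91 between KD tumor and KD nontumor (exact permutation p = 0.0286, adjusted over the 12 tests 0.0686) and by -0.65 between ND tumor and ND nontumor (exact p = 0.0571, adjusted 0.098). Between KD and ND it differed by -0.91 in tumor (exact p = 0.0571) and by -0.65 in nontumor liver (exact p = 0.0286), where the groups do not overlap.

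**Figure D4:**
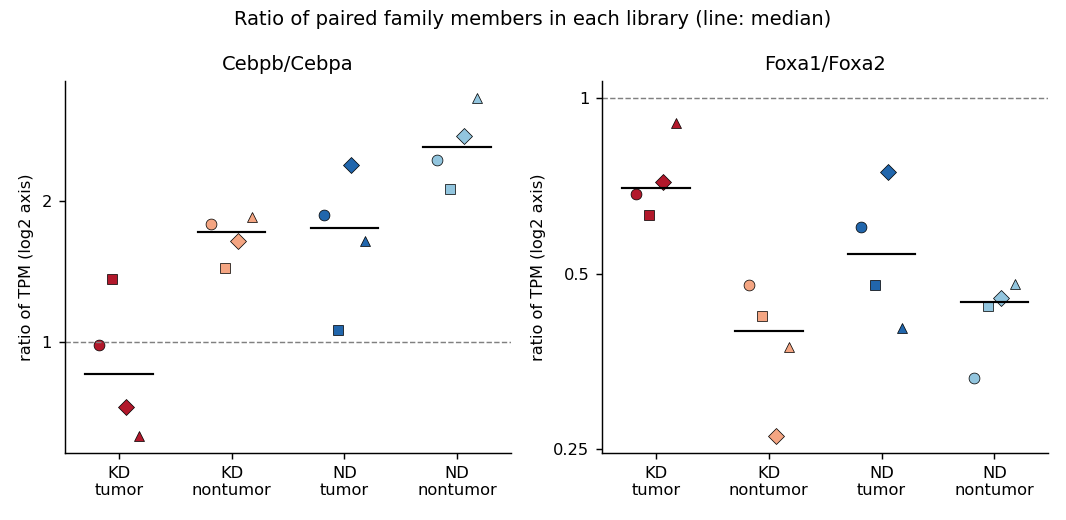
Ratio of TPM within each library (y axis, log2 scale) for Cebpb/Cebpa (left) and Foxa1/Foxa2 (right) in the 4 groups; shapes give the replicate number, lines the group median, and the dashed line equal levels. The median Cebpb/Cebpa ratio is 0.857 in KD tumor and 1.71 in KD nontumor, and the Foxa1/Foxa2 ratio is under 1 in every library.

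The Foxa1/Foxa2 ratio was 0.686, 0.631, 0.717 and 0.905 in KD tumor, against 0.479, 0.423, 0.263 and 0.375 in KD nontumor. On ND it was 0.602, 0.478, 0.747 and 0.404 in tumor, against 0.331, 0.439, 0.454 and 0.4801 in nontumor liver. Foxa2 thus stayed the more abundant of the pair in all 16 libraries, and the KD groups do not overlap. The mean log2 ratio was higher in tumor by 0.94 on KD (exact permutation p = 0.0286, adjusted 0.0686) and by 0.37 on ND (exact p = 0.171, adjusted 0.229).

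Onecut1 and Prox1, both factors of the early liver bud, were lowest in ND tumor. Onecut1 (chr9:74861921-74891781, plus strand), which in mouse controls hepatocyte and bile duct development, was at 1.06, 1.37, 2.72 and 3.697 rescaled TPM in KD tumor, against 2.83, 3.11, 4.78 and 4.87 in KD nontumor. With ND it stood at 0.522, 0.733, 0.441 and 2.04 in tumor, against 2.37, 2.98, 4.78 and 3.83 in nontumor liver. The ND groups do not overlap and the KD groups do. On ND the log2 fold change was -1.25 ± 0.29 with an adjusted p of 0.00439, and without ND nontumor 4 it was -1.21, with an adjusted p of 0.0123. The pseudocount of 1 understates the change of so low a gene: in limma's voom on the recovered reads it was -1.96 (adjusted p 0.0136), from 10, 15, 10 and 61 reads in ND tumor and 52, 55, 94 and 33 in ND nontumor. On KD the value was -0.66 ± 0.29 with an adjusted p of 0.096, and without KD tumor 4, the highest of its group, it was -0.87 with 0.0361. The lincRNA gene Gm20649 overlaps Onecut1 on the same strand and is not among the listed genes. Its effect on the count of Onecut1 reads was not tested.

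Prox1 (chr1:190118035-190170714, minus strand), the homeobox corepressor, was at 13.8, 14.9, 16.9 and 26.8 rescaled TPM in KD tumor, against 24.9, 22.6, 31.97 and 25.4 in KD nontumor. ND mice had it at 9.04, 13.1, 12.7 and 14.2 in tumor, against 30.1, 23.6, 18.8 and 21.98 in nontumor liver. On ND every tumor library lies below every nontumor library, while on KD tumor replicate 4 reaches into the nontumor range. The log2 fold change on ND was -0.89 ± 0.21 (adjusted p 0.0045), so that tumors held 0.5404 of the nontumor level, and without ND nontumor 4 it was -0.91, with an adjusted p of 0.00855. On KD it was -0.54 ± 0.21 with an adjusted p of 0.0569, and without KD tumor 4 it was -0.74 with 0.00899.

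Prox1 also marks lymphatic endothelium, and of 6 markers of those vessels 5 are listed and 3 were tested. None of the 3 passed in any comparison after rescaling or on deposited TPM, while on the common sum 1 passed as higher in ND tumor than in ND nontumor. The summed level of the list was 22.999 to 33.9 rescaled TPM in KD tumor, 13.01 to 24.4 in KD nontumor, 14.2 to 31.1 in ND tumor and, in ND nontumor, 16.1 to 34.5, with overlap of tumor and nontumor on both diets. The opposite-strand transcript Prox1os did not pass either, with -0.38 ± 0.24 on KD and -0.35 ± 0.24 on ND.

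Between the diets, 2 of the 9 factors passed in tumor, against 15.7% of all tested genes, and both had groups that do not overlap (background 22.9%). Cebpa was higher in KD tumor than in ND tumor (7.21% of all genes rose) by 0.78 ± 0.21, with an interval of 0.34 to 1.21 and an adjusted p of 0.0201, a 1.71-fold difference. This call was lost without KD tumor 3 (adjusted p 0.0672), KD tumor 4 (0.0596) or ND tumor 3 (0.0627), and on the common sum (0.30, adjusted p 0.322). The Cebpa call was also lost on deposited TPM (adjusted p 0.889), but held on deposited TPM without ND nontumor 4 (0.0335). Nr5a2 was lower in KD tumor than in ND tumor (8.49% of all genes fell), at -0.76 ± 0.18, with an interval of -1.13 to -0.38 and an adjusted p of 0.0118. The Nr5a2 call held without each library in turn. It was lost on deposited TPM (adjusted p 0.809) and on deposited TPM without ND nontumor 4 (0.0559). Onecut1 (0.72 ± 0.29, adjusted p 0.101) and Prox1 (0.50 ± 0.21, adjusted p 0.111) did not pass, and Onecut1 passed without ND tumor 4 (0.96, adjusted p 0.0361). The 3 Foxa genes, Cebpb and Hnf4a had values between -0.14 and 0.26, none of which passed.

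The share of genes that rose in this diet comparison depended on the scale and, on deposited TPM, on ND nontumor 4. After rescaling 45.9% of 2109 calls were higher in KD tumor, and on the common sum 9.53% of 2887. On deposited TPM the share was 34.5% of 113, and without ND nontumor 4 it was 46.6% of 1599. On the common sum Hnf4a passed as lower in KD tumor (-0.55, adjusted p 0.0495), where the median gene lay at -0.34. Without KD tumor 3, KD tumor 4 or ND tumor 1 the count over all genes was 1027, 1106 or 1158.

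In nontumor liver the diets differed in 0 of the 9 factors by limma, where 0.0447% of all tested genes (6) passed, and voom on the recovered reads also called 0. At an unadjusted p under 0.05 there were 3 members, all of the Foxa family, beside 8.91% of all tested genes. Foxa2 was higher in KD nontumor than in ND nontumor by 0.70 ± 0.17, with an interval of 0.35 to 1.05 and an adjusted p of 0.134, and it was the 1 member whose groups do not overlap (background 5.98%). Foxa1 differed by 0.52 ± 0.21 (adjusted p 0.456) and Foxa3 by 0.53 ± 0.19 (adjusted p 0.38), with values higher on KD in both. Without ND nontumor 4 the Foxa2 value was 0.58 with an adjusted p of 0.283. With sample weights, which lower the influence of variable libraries, Foxa2 (0.61, adjusted p 0.0148) and Foxa1 (0.60, adjusted p 0.036) passed.

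Whether the diet difference depends on the tissue was tested as an interaction, the tumor minus nontumor change on KD less that on ND. By limma 0 of the 9 passed, where 0.61% of all tested genes (82) did, and voom called 0 members. At an unadjusted p under 0.05 there were 2, beside 17.9% of all tested genes. Nr5a2 had -0.89 ± 0.25 (adjusted p 0.098): it was -0.10 between tumor and nontumor on KD and 0.79 on ND. Foxa2 had -0.83 ± 0.23 (adjusted p 0.0993): it was -1.62 on KD and -0.80 on ND. On the common sum both passed, with -1.45 (adjusted p 0.049) for Nr5a2 and -1.39 (0.0305) for Foxa2, where the median gene lay at -0.47. A member that passed on one diet and not on the other is thus not shown to differ between the diets. The count of 82 moved to between 9 and 160 as libraries were left out in turn, and to 160 without ND nontumor 4.

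Relatives of the members within the same families were counted from a list of 10, of which 7 were tested. On KD 1 rose and 3 fell in tumor, and on ND 1 rose and 3 fell, while 16.3% of all genes rose and 16.2% fell on KD, and 14.5% and 14.2% on ND. On the common sum 0 rose and 3 fell on KD and 2 rose and 2 fell on ND, and on deposited TPM 0 rose and 2 fell on KD and 0 rose and 1 fell on ND. Cebpd, which like Cebpb responds to inflammatory signals, averaged 9.07 ± 3.51 rescaled TPM in KD tumor and 17.5 ± 3.97 in KD nontumor, and 9.0001 ± 1.82 in ND tumor and 20.96 ± 3.69 in ND nontumor. Its log2 fold change was -0.91 ± 0.23 (adjusted p 0.00652) on KD and -1.14 ± 0.23 (adjusted p 0.00154) on ND, the direction of Cebpb. Cebpe, best known from granulocytes, fell as well, with -2.64 ± 0.58 (adjusted p 0.00283) on KD and -2.68 ± 0.58 (adjusted p 0.00263) on ND. Onecut2, the close relative of Onecut1, fell by 2.26 ± 0.40 (adjusted p 0.000526) on KD and by 1.39 ± 0.40 (adjusted p 0.015) on ND. Ddit3 (CHOP), the C/EBP relative of the stress response, rose in ND tumor by 1.02 ± 0.32 (adjusted p 0.0248) and was lower in KD tumor than in ND tumor, by -1.26 ± 0.32 (adjusted p 0.0168). Cebpg rose on KD by 0.40 ± 0.14 (adjusted p 0.0346).

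Beyond the 9, a list of 28 other liver-enriched transcription factors was counted, all tested. On KD 1 rose and 15 fell in tumor, and on ND 0 rose and 13 fell, against 16.3% and 16.2% of all genes on KD and 14.5% and 14.2% on ND. On the common sum the counts were 1 and 19 on KD and 1 and 7 on ND, and on deposited TPM 0 and 3 on KD and 0 and 2 on ND. The median log2 fold change of the list was -0.70 on KD and -0.49 on ND. Nr1i3 (CAR), the xenobiotic nuclear receptor, averaged 1.395 ± 0.4702 rescaled TPM in KD tumor and 25.2 ± 3.08 in KD nontumor, with a log2 fold change of -3.47 ± 0.27 (adjusted p 4.7e-07) on KD and -2.57 ± 0.27 (adjusted p 5.82e-06) on ND. Tbx3, a T-box factor of pericentral liver, fell by 2.36 ± 0.36 (adjusted p 0.000161) on KD and 3.68 ± 0.36 (adjusted p 2.27e-06) on ND. Klf15, a regulator of amino acid catabolism, fell by 1.39 ± 0.23 (adjusted p 0.000317) on KD and by 1.44 ± 0.23 (adjusted p 0.00021) on ND. Mlxipl (ChREBP), the sugar-sensing factor, fell by 2.04 ± 0.31 (adjusted p 0.000157) on KD and had -1.20 ± 0.31 (adjusted p 0.0077) on ND. Nr1h4 (FXR), the bile acid receptor, fell by 1.52 ± 0.29 (adjusted p 0.00086) on ND and had -1.19 ± 0.29 (adjusted p 0.00479) on KD.

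**Figure D5:**
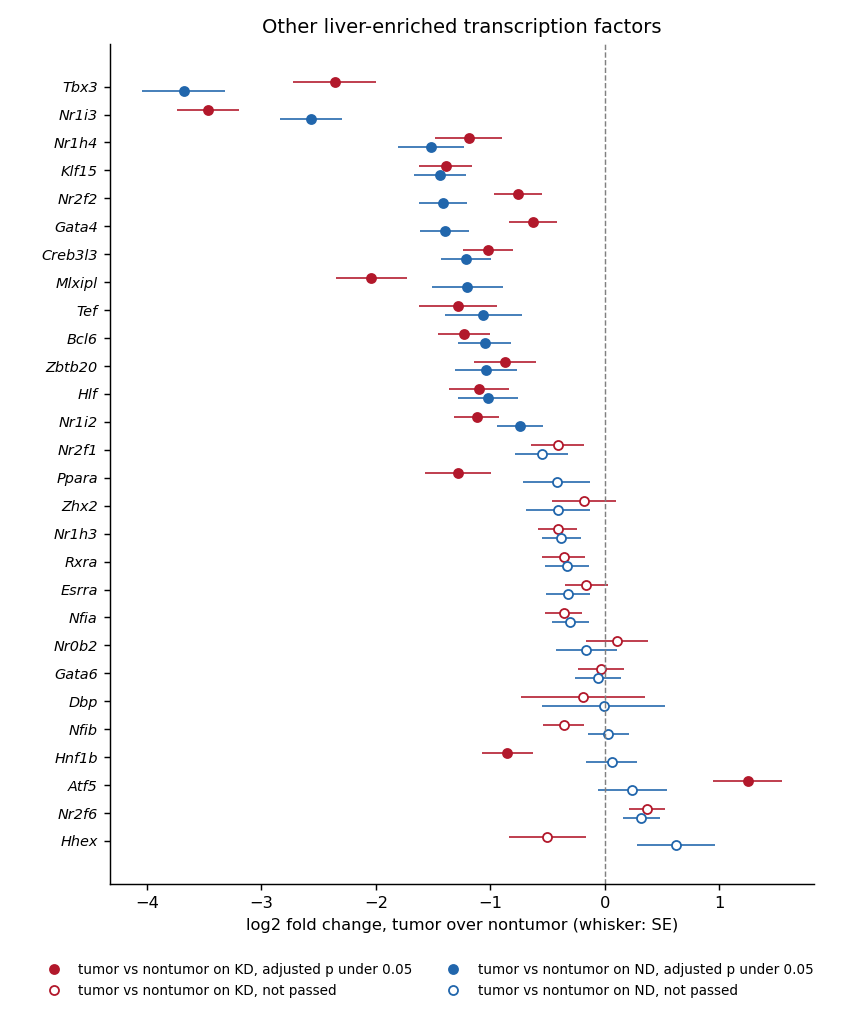
Log2 fold change of tumor over nontumor (x axis, whisker SE) for 28 other liver-enriched transcription factors (y axis, ordered by the ND value), on KD (red) and on ND (blue); filled points passed at an adjusted p under 0.05. After rescaling 15 fell and 1 rose on KD, and 13 fell and 0 rose on ND, while deposited TPM gave 3 falls on KD and 2 on ND.

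Between the diets in tumor, 6 of these 28 factors were higher on KD and 0 lower after rescaling, but 1 was higher and 6 lower on the common sum, and 0 passed on deposited TPM. The 4 with the largest values were Dbp (2.07 ± 0.54 (adjusted p 0.0192)) and Hlf (0.96 ± 0.26 (adjusted p 0.0207)), both PAR bZIP factors of the daily clock, Atf5 (1.34 ± 0.30 (adjusted p 0.00893)), a stress-responsive bZIP factor, and Nr2f2 (0.87 ± 0.21 (adjusted p 0.0121)), an orphan nuclear receptor. In nontumor liver the KD over ND values in the same fit were 2.25 for Dbp (adjusted p 0.138) and 1.05 for Hlf (0.146), of similar size though not passing. There Atf5 had 0.32 and Nr2f2 0.23. Atf5 was also the 1 factor of the list that rose in tumor on KD (1.25 ± 0.30 (adjusted p 0.00448)).

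Genes known from mouse or human liver as targets of the members were counted in the same fit, and several of them (Pck1, G6pc, Tat, Cyp7a1) stand on more than 1 list. The counts stand beside 16.3% of all genes that rose and 16.2% that fell on KD, and 14.5% and 14.2% on ND. Of 24 HNF4A targets, 3 rose and 7 fell in tumor on KD and 3 rose and 11 fell on ND, although Hnf4a itself did not pass (common sum 3 and 10 on KD and 3 and 12 on ND, deposited TPM 2 and 5 on KD and 3 and 6 on ND). Cyp8b1, the enzyme of cholic acid synthesis, averaged 4.43 ± 0.899 rescaled TPM in KD tumor and 139.6 ± 49.4 in KD nontumor, with -4.62 ± 0.37 (adjusted p 4.74e-07) on KD and -5.78 ± 0.37 (adjusted p 4.13e-08) on ND. Pck1, which commits carbon to gluconeogenesis, fell by 3.42 ± 0.35 (adjusted p 3.27e-06) on ND. Apoa4 (4.49 ± 0.68 (adjusted p 0.000164) on KD), Trf (2.88 ± 0.50 (adjusted p 0.000491)) and Apom (2.27 ± 0.32 (adjusted p 0.000107)), which encode secreted carriers of lipid and iron, rose. Between the diets in tumor 6 of the 24 were higher on KD and 0 lower, with 4 and 3 on the common sum and 0 on deposited TPM, and Slc10a1, the bile acid importer, was higher by 2.07 ± 0.40 (adjusted p 0.00449).

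Of 16 C/EBPα targets, 0 rose and 8 fell on KD and 0 rose and 13 fell on ND (common sum 1 and 10 on KD and 0 and 12 on ND, deposited TPM 0 and 5 on either diet). Tat, a tyrosine-degrading enzyme, had -3.48 ± 0.51 (adjusted p 0.000136) on KD and -3.72 ± 0.51 (adjusted p 6.08e-05) on ND, and Hamp, the iron hormone hepcidin, -4.11 ± 0.87 (adjusted p 0.00206) and -3.60 ± 0.87 (adjusted p 0.00532). Of 15 acute phase genes with C/EBPβ sites, 7 rose and 0 fell in tumor on KD and 2 rose and 1 fell on ND, beside the fall of Cebpb itself (common sum 7 and 1 on KD and 5 and 1 on ND, deposited TPM 2 and 0 on KD and 3 and 0 on ND). Lcn2, an iron-scavenging protein of inflammation, had 5.99 ± 0.88 (adjusted p 0.000126) on KD and 6.09 ± 0.88 (adjusted p 8.95e-05) on ND, and Orm1, an acute phase plasma protein, 2.02 ± 0.43 (adjusted p 0.00217) on KD.

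Of 12 tested FOXA targets, 3 rose and 5 fell on KD and 3 rose and 5 fell on ND (common sum 5 and 5 on KD and 3 and 6 on ND, deposited TPM 2 and 4 on KD and 3 and 4 on ND). Afp (3.82 ± 0.83 (adjusted p 0.00245) on KD and 3.66 ± 0.83 (adjusted p 0.00343) on ND) rose, and Cyp2c50, a cytochrome P450, fell the furthest (-4.31 ± 0.52 (adjusted p 2.35e-05) on KD and -7.30 ± 0.52 (adjusted p 8.31e-08) on ND). Of 11 tested NR5A2 targets, 2 rose and 6 fell on KD and 2 rose and 4 fell on ND (common sum 3 and 6 on KD and 2 and 3 on ND, deposited TPM 0 and 3 on KD and 2 and 2 on ND). Cyp7a1, which catalyses the slowest step of bile acid formation, fell in tumor on both diets (-2.74 ± 0.25 (adjusted p 1.93e-06) on KD and -2.06 ± 0.25 (adjusted p 1.91e-05) on ND), and it was the 1 named target to pass between the diets in nontumor liver, higher on KD by 2.24 ± 0.25 (adjusted p 0.000617). Abcb11, the bile salt export pump, had -1.67 ± 0.28 (adjusted p 0.000339) on KD and -1.45 ± 0.28 (adjusted p 0.000936) on ND, while the hormone Fgf21 rose (1.24 ± 0.27 (adjusted p 0.00246) on KD and 1.51 ± 0.27 (adjusted p 0.000585) on ND).

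Of 9 ONECUT1 targets, 0 rose and 8 fell on KD and 0 rose and 6 fell on ND (common sum 0 and 8 on KD and 0 and 5 on ND, deposited TPM 0 and 5 on KD and 0 and 4 on ND), led by Tat, Pck1 and G6pc. Of 5 hepatic genes bound by PROX1, 1 rose and 2 fell on KD and 0 rose and 2 fell on ND (common sum 0 and 2 on KD and 1 and 2 on ND, deposited TPM 0 and 2 on either diet). Which factor acts on a target that stands on several lists was not tested.

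Markers of other cells were counted in the comparison of tumor and nontumor liver, where 16.3% of all genes rose and 16.2% fell on KD, and 14.5% rose and 14.2% fell on ND. Of 11 tested cholangiocyte and progenitor markers, 3 rose and 1 fell on KD and 5 rose and 1 fell on ND, with a summed level over the list of 842 to 2669 rescaled TPM in KD tumor, 91.3 to 305 in KD nontumor, 673 to 2053 in ND tumor and, in ND nontumor, 156 to 258. Most of this sum in tumor was Spp1. Of the defining duct markers, Krt19 was at 0.958 to 2.1998 in KD tumor, 0.853 to 10.3 in KD nontumor, 0 to 3.56 in ND tumor and, in ND nontumor, 3.73 to 9.27, the opposite direction on ND to that of the sum, and Krt7 and Epcam were at no more than 2.61 rescaled TPM in any library. Of 12 myeloid markers, 1 rose and 0 fell on KD and 1 rose and 1 fell on ND, with summed levels of 125 to 244 in KD tumor, 86.2 to 162 in KD nontumor, 108 to 249 in ND tumor and, in ND nontumor, 126 to 201. Of 10 sinusoidal endothelial and stellate markers, 2 rose and 1 fell on KD and 5 rose and 4 fell on ND, and their sum was 99.8 to 189.6 in KD tumor, 82.6 to 155 in KD nontumor, 94.7 to 207 in ND tumor and, in ND nontumor, 138 to 163. Of 14 hepatocyte markers, 5 rose and 2 fell on KD and 2 rose and 3 fell on ND. Of 3 tested pancreas and gut epithelium markers, 2 rose and 0 fell on KD and 1 rose and 0 fell on ND, with summed levels of 351 to 507 in KD tumor, 48.2 to 271 in KD nontumor, 103 to 149 in ND tumor and, in ND nontumor, 33.99 to 124. Of 3 tested liver tumor and fetal markers, 3 rose and 0 fell on KD and 3 rose and 0 fell on ND. On the common sum the higher and lower counts on KD were 2 and 1 for cholangiocyte, 1 and 1 for myeloid, 2 and 3 for endothelial and stellate and 7 and 2 for hepatocyte markers, and on ND they were 6 and 1 for cholangiocyte, 1 and 0 for myeloid, 5 and 4 for endothelial and stellate and 3 and 4 for hepatocyte markers. On deposited TPM the KD counts were 2 and 0 for cholangiocyte, 0 and 0 for myeloid, 2 and 0 for endothelial and stellate, 1 and 1 for hepatocyte and 1 and 0 for pancreas and gut markers. The ND counts on that scale were 5 and 1 for cholangiocyte, 1 and 0 for myeloid, 4 and 3 for endothelial and stellate and 1 and 1 for hepatocyte markers. Counts of the tumor and fetal markers were 3 and 0 on every scale and diet. The part of these cells in the values of the 9 factors was not tested.

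The genes whose pattern over the 16 libraries was most like that of each member were found by the root mean square difference of log2(rescaled TPM + 1), with each gene centred on its own mean. Genes with Gm-number, Rik, clone, Mir or Snor names were left out of this search. This is a description over libraries that share their scaling. The pseudocount of 1 understates differences of low genes, such as Celf2, with group means of 0.666 to 2.24 rescaled TPM, and Ppm1l, with 0.303 to 1.43. For Cebpb the closest were Celf2 (0.199), an RNA-binding protein, and its own relative Cebpd (0.234), beside a spread of 0.501 of Cebpb about its mean. For Foxa2 they were Il6ra (0.251), the interleukin 6 receptor, and Dcaf11 (0.282), beside a spread of 0.678. For Foxa3 they were the small GTPase gene Hras (0.199) and the kinase gene Prkca (0.203), beside 0.558. Cebpa lay closest to Dgat2 (0.19), an enzyme of triglyceride synthesis, and to Tatdn2 (0.19), and Nr5a2 to Zfp408 (0.164) and Man2a2 (0.177).

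For Hnf4a, which varied least, the closest were Slc25a17 (0.145) and Ercc3 (0.147), beside a spread of 0.207. Foxa1 lay closest to Ppm1l (0.23) and Bag3 (0.236), Prox1 to Eif4a2 (0.186) and Zfp729a (0.192), and Onecut1 to Pigw (0.28) and Atf6b (0.301). Among the 9 themselves the closest pair was Prox1 and Onecut1 (0.378), and the nearest member to Foxa3 was Nr5a2, at 0.601.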

How the data were processed

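Polyadenylated RNA was extracted with Trizol from tumor and nontumor liver, per the labels' protocols. Per the submitters' processing notes, reads were handled with FastQC, HISAT2, SAMtools and featureCounts on build mm10 (versions, annotation, strand setting and the step to TPM are not given in the sources used here). The authors deposited TPM for 20601 genes in 16 columns, of which 0 were left unused, and nontumor columns carry P where titles carry N, matched by diet letters and number.

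TPM was divided by median-of-ratios factors over 12119 genes above 0 in every library. Genes with deposited TPM of at least 1 in at least 4 libraries (13432) were tested with limma 3.58.1 in R 4.3.3 (variance trend, log2 of rescaled TPM + 1, 16 libraries, no block), with Benjamini-Hochberg adjusted p under 0.05 over all tested genes. Summaries used Python 3.11.15 with pandas 2.3.3. Whole reads, taken as the smallest whole numbers that match a gene's values, were found for 100.0% of genes within 0.001 reads. A gene above 0 in a single library always has such a match, and counts with a common factor come out too low. Depth by these reads was 3518966 to 14074042. The lowest chi-square per degree of freedom between libraries of 1 group was 12.3, so none is a copy. Tested on simulated data for tumor against nontumor on ND (13432 genes), the fit recovered 98% of 4-fold and 52% of 2-fold changes and called 9 unchanged genes. The simulation changed 100 genes at each fold, none of them with few reads, and gave every gene the same preset spread. In the real comparison 28.7% of tested genes passed, so these rates need not hold there.

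The members, gene lists and tests were chosen with earlier results of these data known. Named genes are the 9 members, the family relatives and, for each list and comparison, up to 4 passing genes with the largest change, plus the 2 closest patterns per member. Hnf4aos, Prox1os, Albumin, Krt7 and Epcam were named outside that rule after their values were seen. One gene is left out of the lists and not reported here. GC and length came from GENCODE M21 for 97.9% of tested genes. The alternatives were deposited TPM, a common sum, a pseudocount of 0.1, no filter, fewer groups, sample weights, replicate block, GC and length correction and each library left out, and, chosen after seeing the data, voom on recovered reads and deposited TPM without ND nontumor 4.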

Additional observations from a re-analysis of the deposited data

Results flagged for a closer look

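Of 36 groups of 4 libraries (9 factors in 4 groups), 2 held a library far from the other 3, where chance flags about 1 group in 20. Cebpb in ND tumor 2 was at 303 rescaled TPM, against 485 to 514 in the other ND tumor libraries, and its gap to the nearest is 0.89 of the group's range on the scale of log2(rescaled TPM + 1). Without that library Cebpb in tumor over nontumor on ND was -0.73 (adjusted p 0.0306 by limma). Nr5a2 in KD tumor 4 was at 15.2, against 10.4 to 11.1 in the other KD tumor libraries, with a gap of 0.834 of the range on the same log2 scale. Without it Nr5a2 in KD tumor over ND tumor was -0.87 (adjusted p 0.0129).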

How the results depend on the processing

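The 12 member calls kept their sign under all 27 alternatives, though not all passed under each. On deposited TPM, members called fell to 1 on KD (rescaled 4), 0 on ND (6) and 0 for KD against ND in tumor (2), and genes called were 1111 on KD, 1418 on ND, 113 for the diets in tumor, 65 for the diets in nontumor liver and, for the interaction, 14, against 4361, 3855, 2109, 6 and 82. Without ND nontumor 4 the deposited scale called 5 members on KD, 5 on ND and 1 between diets in tumor. Genes called were then 4451 on KD, 3067 on ND and 1599 for the diets in tumor. They were 7 for the diets in nontumor liver and 129 for the interaction. On the common sum 3 members passed on ND and 2 for the interaction, with 13 genes in nontumor liver and 536 for the interaction. Sample weights called 433 genes and 2 members in nontumor liver and 386 genes and 1 member for the interaction. Without a filter 10 and 32 genes passed in these comparisons, in a fit of the 2 groups alone 2 in nontumor liver, and with GC and length trends removed 18 there. With the replicate number as a block 32 genes passed for the interaction, and with the block and the GC and length correction 21, beside 18 in nontumor liver. The block called 3 members on KD, where Cebpb was lost (adjusted p 0.0638), and it changed no other member call. Deviations of same-numbered libraries had correlations of -0.112 to 0.164. Only number 4 on KD correlated best with its own number (0.164 against 0.123), so the numbers were not read as pairs. As each library was left out in turn, members called ran from 3 to 5 on KD, 6 to 7 on ND and 1 to 3 between diets in tumor, and were 0 each time for the other 2 comparisons. Genes called ran from 3266 to 4498 on KD, 3080 to 4052 on ND, 1027 to 2511 between diets in tumor, 5 to 12 in nontumor liver and 9 to 160 for the interaction. The count in nontumor liver was 12 without KD nontumor 4, 10 without ND tumor 3 and 11 without ND nontumor 4. The interaction count was 23, 23 and 16 without KD tumor 2, 3 and 4, 50, 18 and 15 without KD nontumor 2, 3 and 4, 12 without ND tumor 1, and 47, 9, 14 and 160 without ND nontumor 1, 2, 3 and 4. Without ND tumor 3, 7 of the 12 permutation tests of ratios of Cebpb/Cebpa, Foxa1/Foxa2 and Foxa3/Foxa2 stood at the smallest exact p and so reached an adjusted p of 0.049, with no change of sign, and 4 of the 7 hold no ND tumor library. The cause of these shifts was not tested. Onecut1 rests on 10 to 94 reads per library. Changes near 2-fold can be missed at 4 libraries a group, and the simulation recovered 52% of them under its own settings.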
